A study of Homo sapiens with 8 samples.

Results

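The integrated stress response and amino acid supply genes are 33 genes picked by symbol from the 58825 genes of the deposited table: 5 transcription factors, 4 feedback and effector genes, 9 enzymes that make amino acids and one-carbon units, 7 amino acid transporters and 8 cytosolic tRNA synthetases. They were followed in BJ-HRAS cells, a derivative of the BJ human skin fibroblast line, in which 4-hydroxytamoxifen (4-OHT, an oestrogen receptor ligand) commonly serves to activate an HRAS protein fused to the receptor and so to drive the cells towards senescence. All 4 groups share this BJ-HRAS background and differ in the small nucleolar RNA SNORA13 and in 4-OHT. WT clones 15 and 54 and SNORA13 KO clones 66 and 69 were each sequenced without 4-OHT and after 7 days in 100 nM 4-OHT, giving 8 libraries in 4 groups of 2. Each genotype is therefore represented by 2 clones, and a difference between KO and WT holds whatever else sets these clones apart. The p-values rest on a spread per gene between clones of the same group, pooled over all 4 groups and drawn towards that of other genes. Clones that differ in a group therefore also widen the tests between other groups.

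In the integrated stress response, kinases that sense amino acid shortage, unfolded protein, double-stranded RNA or haem deficiency phosphorylate the initiation factor eIF2. General translation then falls, while translation of the ATF4 message rises. ATF4 pairs with C/EBP proteins and binds composite sites near genes for amino acid import, amino acid synthesis and tRNA charging. Such sites also lie near effector genes such as CHAC1 and near genes such as TRIB3 that feed back on the response. Messages were measured here, so that translation of ATF4 and phosphorylation of eIF2 are outside these data.

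Library totals were 22.1 to 24.9 M reads. SNORA13 had 4 to 7 reads in each WT library and 0 in each KO library, where a count of 0 allows up to 3 reads. The HRAS message measured 257.6 and 236 RPKM in WT and 203.7 and 199.6 in KO without 4-OHT. With 4-OHT it measured 279.2 and 300.6 RPKM in WT and 360.1 and 332.3 in KO. HRAS was thus lower in KO without 4-OHT and higher in KO with it. Its part in the differences between genotypes was not tested. All 10 fibroblast markers were read in every library, with a summed level of 5039 to 5254 RPKM in WT and 4654 to 4790 in KO without 4-OHT, and of 3118 to 3460 and 3072 to 3386 with it. The sum hides opposite moves: with 4-OHT the group means of VIM and S100A4 were higher in both genotypes and those of the other markers lower. In WT, VIM went from 797 to 1253 RPKM and S100A4 from 1076 to 1470, while COL1A2 went from 1712 to 257.5 and DCN from 61.6 to 0.928. Summed epithelial, endothelial and melanocyte or neural markers stayed at or under 1.42 RPKM in every library. The 6 immune markers summed to 8.75 to 16.6 RPKM, carried mostly by CD14, with CD68 listed at 0. RPKM (a read density scaled for transcript length and library total, here divided by a TMM factor per library) rests in this table on the length of a single listed transcript per gene, so levels are compared between libraries and not between genes. In such bulk RNA, fewer cells of a kind and less RNA per cell cannot be told apart. Of the 33 genes, 32 passed the filter on low values. The exception was ASNS, the asparagine synthetase and a classical ATF4 target, which was listed at 0 in all 8 libraries, as was the widely expressed CD68. No level or comparison of ASNS is given.

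The composite element that ATF4 binds with a C/EBP partner is the sequence through which the pathway is known to act on its targets, so the matches found in promoters are shown first. Promoter windows of 300 bases (250 before to 50 after the RefSeq start, GRCh38.p14) were matched for 27 of the 33 genes. NUPR1, PSPH, SHMT2, ALDH1L2, SLC7A11 and LARS were not matched. Both strands were searched for TTGCATCA and for the looser TTNCATCA, which includes it. TTGCATCA occurred in 5 of the 27 windows (18.5%) and in 252 of all 27305 windows of that length (0.92%). TTNCATCA occurred in 8 of the 27 (29.6%) and in 1003 of all windows (3.67%). Capitals mark the matched letters, written on the strand of the gene, so that a match on the other strand reads TGATGCAA or TGATGAAA.
CHAC1: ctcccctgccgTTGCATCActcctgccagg
AARS: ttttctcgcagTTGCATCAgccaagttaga
MARS: gccggttccggTTGCATCAgcgagggattc
IARS: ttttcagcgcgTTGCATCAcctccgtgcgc
NARS: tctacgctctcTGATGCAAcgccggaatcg
SLC3A2: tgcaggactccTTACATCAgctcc
SLC7A1: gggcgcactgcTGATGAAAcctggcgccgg
ASNS: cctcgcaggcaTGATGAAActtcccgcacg

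These stretches lie at chr15:40953251-40953280 (CHAC1, plus strand), chr16:70289675-70289704 (AARS, minus), chr12:57488053-57488082 (MARS, plus), chr9:92293692-92293721 (IARS, minus), chr18:57621804-57621833 (NARS, minus), chr11:62881725-62881748 (SLC3A2, plus), chr13:29595663-29595692 (SLC7A1, minus) and chr7:97872458-97872487 (ASNS, minus). The matched letters began 209 bases upstream of the RefSeq start in CHAC1, 187 in AARS, 68 in ASNS, 13 in IARS and 4 in MARS, where they run across the start. In SLC7A1, NARS and SLC3A2 they began 7, 14 and 37 bases downstream of it. By role, 4 of the 7 matched synthetase windows held TTGCATCA and none of the 4 transcription factor windows did. A match describes letters in a window and is no evidence of binding in these cells, and a window without one says nothing about ATF4 at that gene.

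The first question was how these genes responded to 4-OHT in either genotype. In WT clones 9 of the 32 tested genes rose and 6 fell (limma, Benjamini-Hochberg adjusted p under 0.05 over all 16542 genes tested), against 24.7% and 24.2% of all genes (48.9% in either direction). In KO clones 14 rose and 4 fell, against 27.9% and 27.8% (55.7% in either direction). The groups without and with 4-OHT did not overlap in 16 higher and 13 lower genes in WT, against 36.1% and 36.7% of all genes, and in 18 higher and 6 lower genes in KO, against 39.6% and 41.2%. The median log2 difference of the 32 genes was 0.11 in WT and 0.31 in KO, with -0.02 over all genes in each. The glutathione-degrading enzyme gene CHAC1, the cystine importer gene SLC7A11 and its partner SLC3A2, the cationic amino acid transporter gene SLC7A1, the glutamine transporter gene SLC1A5, the ATF4 inhibitor gene TRIB3 and the synthetase genes GARS, NARS and IARS rose in both genotypes. CEBPB, NUPR1, SLC1A4 and SLC38A2 fell in both. ATF4 itself was not called in either.

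**Figure D1:**
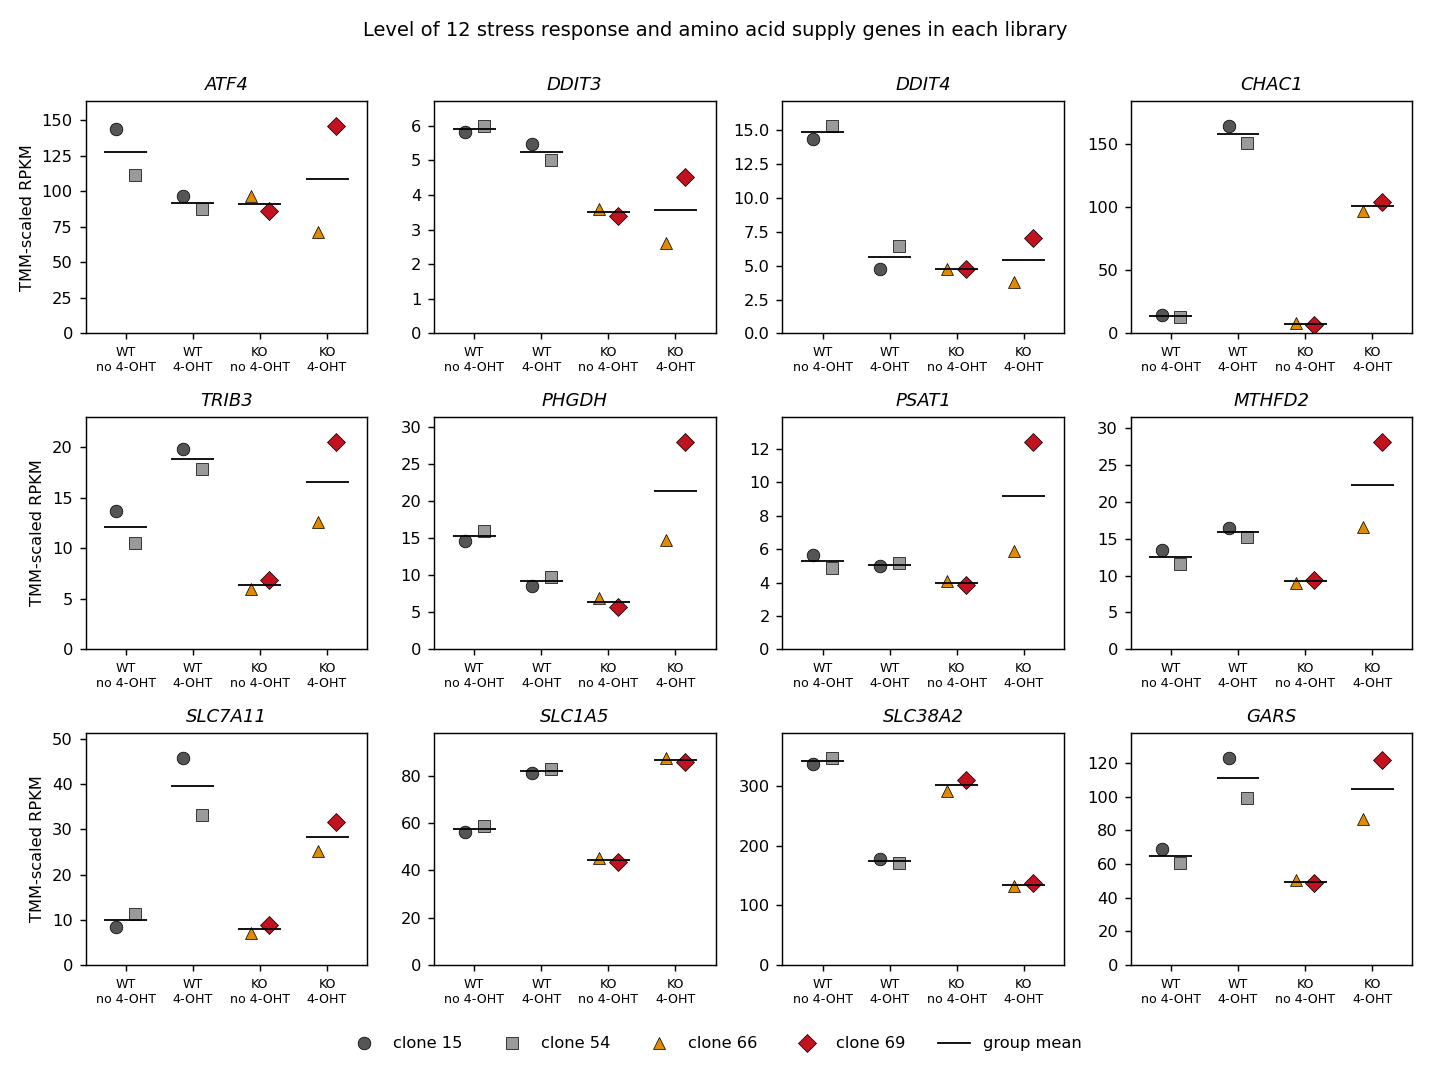
TMM-scaled RPKM (y axis, linear from 0) of 12 genes in each of the 8 libraries, by group (x axis); symbols mark the clones and lines the mean of the 2 clones. CHAC1 rose from 14.7 and 13.2 to 164 and 151 RPKM in WT, and in KO with 4-OHT ATF4, PSAT1, PHGDH and MTHFD2 were higher in clone 69 than in clone 66.

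Among the transcription factors, ATF4, the factor whose translation the pathway raises, measured 144 and 112 RPKM in WT clones 15 and 54 without 4-OHT and 96.6 and 87.5 with it. In KO clones 66 and 69 it measured 96.6 and 85.9 without 4-OHT and 71.5 and 146 with it. Both WT clones and KO clone 66 were lower with 4-OHT, and KO clone 69 was higher than every other library. The log2 difference was -0.46 ± 0.30 (SE) in WT (limma adjusted p = 0.235) and 0.16 ± 0.30 in KO (adjusted p = 0.664). Without KO clone 66 with 4-OHT the ATF4 response passed the test upward in KO (log2 0.68, adjusted p = 0.019) and downward in WT (-0.46, adjusted p = 0.0342). Without KO clone 69 with 4-OHT it passed in WT alone (-0.48, adjusted p = 0.0301).

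DDIT3 encodes CHOP, the factor linked to cell death under lasting stress. It measured 5.81 and 5.998 RPKM in WT without 4-OHT and 5.46 and 5.01 with it, and 3.6 and 3.40 in KO without and 2.63 and 4.54 with it. Every KO library was lower than every WT library, but neither response was called (log2 -0.17 ± 0.22 in WT, adjusted p = 0.562, and -0.02 ± 0.22 in KO, adjusted p = 0.957, limma). DDIT3 overlaps MARS on the opposite strand, and since the strand setting of the counting is not given in the sources used here, reads of that pair may be shared.

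CEBPB, a C/EBP partner and an inducer of inflammatory genes in senescent cells, fell 1.49-fold in WT, from 29.5 and 26.5 to 17.1 and 20.6 RPKM (log2 -0.57 ± 0.16, limma adjusted p = 0.0216). In KO it fell 1.97-fold, from 32.6 and 30.4 to 13.5 and 18.8 RPKM (log2 -0.97 ± 0.16, adjusted p = 0.00163). The groups did not overlap in either genotype, but the WT call ended with no filter on low values (limma adjusted p = 0.0771) and without WT clone 15, without 4-OHT or with it. CEBPG, another partner of ATF4, lay between 6.24 and 9.61 RPKM in all libraries and was not called (log2 0.28 ± 0.14 in WT and 0.37 ± 0.14 in KO, adjusted p = 0.125 and 0.0534). With the clone as a replicate block its KO response passed (log2 0.37, adjusted p = 0.0482), as it did in a fit of the 4 KO libraries (0.0466), on recovered reads with limma-voom (0.0318) and without KO clone 66 with 4-OHT (0.0186).

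NUPR1, a stress-induced chromatin protein, was nearly lost with 4-OHT. It had 182 and 207 reads in WT without 4-OHT and 2 and 0 with it, and 131 and 158 in KO without and 0 and 0 with it. The ratio over the WT group was 198-fold lower with 4-OHT, with a 95% exact interval of 54.5 to 1640 that covers counting error only. In KO the level was at least 45.7-fold lower, taking 3 reads per library as the limit of a count of 0. Both responses passed the test (limma adjusted p = 1.83e-05 and 1.86e-05). With NUPR1 set at these values the median log2 difference of the 32 genes was 0.10 in WT and 0.31 in KO.

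The feedback and effector genes held the largest rise. CHAC1 measured 14.7 and 13.2 RPKM in WT without 4-OHT and 164 and 151 with it, and 8.11 and 6.84 in KO without and 97.2 and 104 with it. No library with 4-OHT came near any without it. The rise was 11.2-fold in WT (log2 3.49 ± 0.11, limma adjusted p = 2.2e-06) and 13.4-fold in KO (3.74 ± 0.11, adjusted p = 1.05e-06), and it was called under every alternative setting run.

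TRIB3, a pseudokinase that binds and inhibits ATF4, went from 13.7 and 10.6 to 19.8 and 17.9 RPKM in WT and from 5.95 and 6.86 to 12.6 and 20.6 in KO. Each clone was higher with 4-OHT, and the groups did not overlap in either genotype. The difference was log2 0.64 ± 0.23 in WT (limma adjusted p = 0.0493) and 1.32 ± 0.23 in KO (adjusted p = 0.002). The WT call lay at the threshold and ended at a pseudocount of 1 or 0.01 (both adjusted p = 0.0517), with the stricter filter (0.0536) or none (0.128), without TMM scaling (0.0785), with median-of-ratios factors (0.0501), and without WT clone 54 without 4-OHT (0.21), WT clone 15 with 4-OHT (0.184), WT clone 54 with 4-OHT (0.104) or either KO clone without 4-OHT (0.0738 and 0.074).

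DDIT4, also called REDD1, restrains mTORC1. It measured 14.4 and 15.3 RPKM in WT without 4-OHT, 4.73 and 6.49 with it, 4.74 and 4.74 in KO without and 3.81 and 7.02 with it. The 2 WT libraries without 4-OHT stood above the other 6. DDIT4 fell 2.65-fold in WT (log2 -1.40 ± 0.27, limma adjusted p = 0.00394) and was not called in KO (0.12 ± 0.27, adjusted p = 0.72). PPP1R15A encodes GADD34, the phosphatase subunit that ends the response by removing phosphate from eIF2. Its levels, 53.4 and 51.6 RPKM in WT without and 55.1 and 51.3 with 4-OHT, and 43.3 and 37.6 in KO without and 35.8 and 35.4 with it, gave no called response (log2 0.02 ± 0.09, adjusted p = 0.873, and -0.18 ± 0.09, adjusted p = 0.113). Without KO clone 69 without 4-OHT a fall in KO passed (log2 -0.29, adjusted p = 0.0475).

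Among the 8 tested synthesis enzymes 4 rose in KO, against 27.9% of all genes (55.7% called in either direction). In WT none was called, against 48.9% of all genes, and the smallest adjusted p was that of PHGDH, just over the threshold. PHGDH, which commits glycolytic 3-phosphoglycerate to serine synthesis, measured 14.6 and 16.0 RPKM in WT without 4-OHT and 8.55 and 9.78 with it. In KO it measured 6.90 and 5.76 without and 14.8 and 28.04 with 4-OHT. The order of the groups was thus turned round, with WT lower and KO higher after 4-OHT. The KO rise was 3.19-fold (log2 1.68 ± 0.27, limma adjusted p = 0.00132). The WT difference missed the threshold (log2 -0.74 ± 0.27, adjusted p = 0.0534) and passed with a stricter filter (-0.79, adjusted p = 0.0323), without TMM scaling (-0.80, 0.0406), in a fit of the 4 WT libraries alone (-0.74, 0.00763) and without KO clone 66 or 69 with 4-OHT (0.00408 and 0.00418).

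PSAT1, the transaminase that follows PHGDH, measured 5.68 and 4.89 RPKM in WT without and 5.0 and 5.15 with 4-OHT, and 4.09 and 3.86 in KO without and 5.92 and 12.4 with it. Clone 69 with 4-OHT stood above the other 7 libraries. The KO rise was 2.13-fold (log2 1.09 ± 0.29, limma adjusted p = 0.0156), and the WT difference was -0.05 ± 0.29 (adjusted p = 0.895). The KO call ended without KO clone 66 (0.0586) or KO clone 69 (0.0737) without 4-OHT. PSPH, the phosphatase that completes serine, lay between 11.97 and 13.8 RPKM in 7 libraries and at 17.1 in KO clone 69 with 4-OHT: in WT 13.5 and 13.4 without and 13.4 and 11.97 with 4-OHT, in KO 13.8 and 13.6 without and 13.3 and 17.1 with it. It was not called (log2 -0.09 ± 0.12 in WT, adjusted p = 0.601, and 0.14 ± 0.12 in KO, 0.376); without KO clone 66 with 4-OHT the KO response passed (0.32, adjusted p = 0.0492).

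The mitochondrial one-carbon enzyme SHMT2, which splits serine to glycine, measured 59.0 and 51.1 RPKM in WT without and 64.9 and 63.7 with 4-OHT, and 40.8 and 39.2 in KO without and 60.1 and 74.4 with it. The groups did not overlap in either genotype. It rose 1.67-fold in KO (log2 0.74 ± 0.11, limma adjusted p = 0.00119) and was not called in WT (0.23 ± 0.11, adjusted p = 0.143). MTHFD2, the next enzyme of the mitochondrial folate path, measured 13.5 and 11.6 RPKM in WT without and 16.5 and 15.3 with 4-OHT, and 9.01 and 9.43 in KO without and 16.6 and 28.2 with it. It was higher with 4-OHT in each clone, 2.33-fold in KO (log2 1.22 ± 0.22, adjusted p = 0.00244) and 1.27-fold in WT, where it was not called (0.35 ± 0.22, adjusted p = 0.232). Leaving out KO clone 66 or 69 with 4-OHT made the WT rise of MTHFD2 pass (log2 0.35 and 0.33, adjusted p = 0.0335 and 0.0375).

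ALDH1L2, a mitochondrial folate dehydrogenase, CTH, the cystathionine lyase that makes cysteine, and PCK2, the mitochondrial form of phosphoenolpyruvate carboxykinase, were not called in either genotype. With the clone as a replicate block 3 of these differences passed: ALDH1L2 was lower in WT (log2 -0.72, limma adjusted p = 0.0449), and in KO CTH was lower (-0.71, 0.0332) and PCK2 higher (0.45, 0.0173). ALDH1L2 in WT also passed with the stricter filter (0.0433) and without WT clone 15 (0.0419) or KO clone 69 (0.0482) with 4-OHT. CTH in KO also passed with the stricter filter (0.0466) and without KO clone 66 without 4-OHT (0.0207). PCK2 in KO also passed without WT clone 15 (0.0469) or 54 (0.0429) without 4-OHT and without KO clone 66 with 4-OHT (0.0209). CTH had 46 to 122 reads in a library, PCK2 85 to 149 and ALDH1L2 263 to 672.

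Of the 7 transporters 4 were higher and 2 lower in each genotype, against 48.9% of all genes called in WT and 55.7% in KO. SLC7A11, the light chain of the cystine-glutamate exchanger, measured 8.47 and 11.4 RPKM in WT without and 45.9 and 33.2 with 4-OHT, and 7.16 and 8.95 in KO without and 25.2 and 31.7 with it. SLC3A2, the heavy chain it shares with SLC7A5, measured 46.0 and 59.9 RPKM in WT without and 109.9 and 95.7 with 4-OHT, and 40.7 and 41.1 in KO without and 70.8 and 94.9 with it. Every library with 4-OHT was above every library without it for both chains. SLC7A11 rose 3.94-fold in WT (log2 1.98 ± 0.21, limma adjusted p = 0.000288) and 3.5-fold in KO (1.81 ± 0.21, adjusted p = 0.000312), and SLC3A2 rose 1.95-fold and 2-fold (0.97 ± 0.17, adjusted p = 0.00261, and 1.00 ± 0.17, adjusted p = 0.00174).

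SLC7A5, the leucine transporter that pairs with SLC3A2, did not follow them. It measured 26.9 and 31.3 RPKM in WT without and 40.0 and 33.6 with 4-OHT, and 27.7 and 25.6 in KO without and 19.8 and 34.2 with it. The KO clones moved in opposite directions, clone 66 down and clone 69 up. Neither response was called (limma log2 0.34 ± 0.23 in WT, adjusted p = 0.271, and -0.03 ± 0.23 in KO, adjusted p = 0.919).

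SLC1A5 (ASCT2) carries glutamine and other neutral amino acids. It measured 56.3 and 58.6 RPKM in WT without and 81.1 and 82.8 with 4-OHT, and 45.1 and 43.8 in KO without and 87.7 and 85.8 with it. Clones of a group agreed closely, and the rise was 1.43-fold in WT (log2 0.51 ± 0.06, limma adjusted p = 0.000527) and 1.95-fold in KO (0.96 ± 0.06, adjusted p = 2.24e-05). SLC7A1, the arginine and lysine transporter, went from 8.72 and 13.0 to 20.0 and 23.6 RPKM in WT and from 9.57 and 8.01 to 24.0 and 23.3 in KO. It rose 2.03-fold in WT and 2.68-fold in KO (log2 1.02 ± 0.19 and 1.42 ± 0.19, adjusted p = 0.00325 and 0.00051), in each clone.

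SLC38A2 (SNAT2), a neutral amino acid transporter known as induced by amino acid shortage, fell. It measured 338 and 348 RPKM in WT without and 178 and 170.3 with 4-OHT, and 292 and 309.8 in KO without and 133 and 137 with it. The groups lay far apart, with a fall of 1.96-fold in WT (log2 -0.97 ± 0.07, limma adjusted p = 4.21e-05) and 2.23-fold in KO (-1.16 ± 0.07, adjusted p = 1.47e-05). SLC1A4 (ASCT1), which carries alanine, serine and cysteine, went from 4.94 and 5.06 to 1.34 and 1.59 RPKM in WT and from 5.38 and 5.43 to 1.997 and 3.31 in KO. It fell 3.26-fold in WT (log2 -1.70 ± 0.22, adjusted p = 0.000636) and 2.06-fold in KO (-1.04 ± 0.22, adjusted p = 0.00515).

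tRNA synthetases load amino acids onto tRNAs. GARS, for glycine, measured 69.2 and 60.9 RPKM in WT without and 123 and 99.2 with 4-OHT, and 50.6 and 48.6 in KO without and 86.9 and 122 with it. It was higher with 4-OHT in each clone, 1.7-fold in WT (log2 0.77 ± 0.17, limma adjusted p = 0.00783) and 2.07-fold in KO (1.05 ± 0.17, adjusted p = 0.00146). The WT call ended without WT clone 15 with 4-OHT (adjusted p = 0.0533). IARS, for isoleucine, went from 67.9 and 69.6 to 94.2 and 89.3 RPKM in WT and from 56.0 and 58.8 to 77.6 and 86.7 in KO, rises of 1.33-fold and 1.43-fold (adjusted p = 0.00368 and 0.00104). NARS, for asparagine, went from 53.4 and 54.3 to 73.2 and 71.96 RPKM in WT and from 54.5 and 57.7 to 62.9 and 76.2 in KO, rises of 1.35-fold and 1.23-fold (adjusted p = 0.00798 and 0.0293). The KO call of NARS ended without a filter on low values (0.0513), without TMM scaling (0.0701) and without KO clone 66 without 4-OHT (0.145), KO clone 69 without 4-OHT (0.0744) or KO clone 69 with it (0.143).

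AARS, for alanine, measured 37.8 and 36.5 RPKM in WT without and 26.6 and 28.1 with 4-OHT, and 24.99 and 25.1 in KO without and 23.2 and 31.8 with it. The WT libraries without 4-OHT were above the other 6. AARS fell 1.36-fold in WT (log2 -0.44 ± 0.14, limma adjusted p = 0.0298) and was not called in KO (0.12 ± 0.14, adjusted p = 0.487), where without KO clone 66 with 4-OHT a rise passed (0.35, 0.0206). The WT call ended with no filter on low values (0.0943) and without any 1 of 6 libraries: WT clone 15 without 4-OHT (0.0911) or with it (0.114), WT clone 54 without (0.0576) or with it (0.0733), and KO clone 66 or 69 without 4-OHT (0.0503 and 0.0504).

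MARS, for methionine, rose 1.66-fold in KO, from 29 and 26.8 to 39.6 and 54.3 RPKM (log2 0.73 ± 0.14, limma adjusted p = 0.00294), and was not called in WT, at 38.1 and 39.5 without and 43.5 and 42.9 with 4-OHT (0.15 ± 0.14, adjusted p = 0.387). WARS, SARS and LARS, for tryptophan, serine and leucine, were not called in either genotype (adjusted p between 0.0509 and 0.968). The SARS rise in KO (log2 0.32 ± 0.12, adjusted p = 0.0604) passed on recovered reads with limma-voom (0.32, 0.0301) and without KO clone 66 with 4-OHT (0.53, 0.00405). WARS in WT was close, at log2 -0.34 ± 0.12 with adjusted p = 0.0509, and passed with the stricter filter (-0.40, 0.0225), without TMM scaling (-0.41, 0.0446), without WT clone 15, KO clone 66 or KO clone 69 with 4-OHT (0.0479, 0.0232 and 0.0188), with RN7SL1 and RN7SL2 left out of the scaling (-0.34, 0.0482) and on recovered reads with limma-voom (-0.34, 0.0219).

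**Figure D2:**
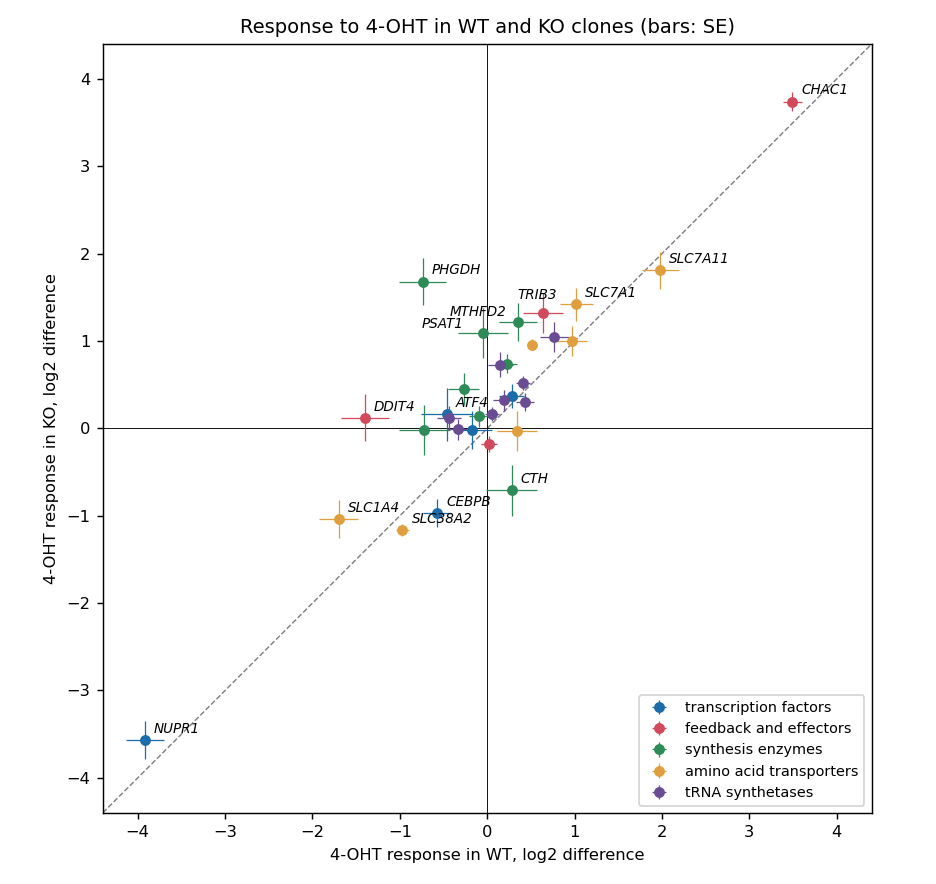
Log2 difference with against without 4-OHT in WT (x axis) and in KO (y axis) for the 32 tested genes, coloured by role, with bars of 1 SE; the dashed line marks equal responses. CHAC1 (3.49 and 3.74) and NUPR1 (-3.92 and -3.57) lie at the ends, and PHGDH (-0.74 and 1.68) lies farthest from the line.

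The second question was how KO differed from WT before 4-OHT. None of the 32 genes was higher in KO and 6 were lower, against 2.84% and 3.73% of all genes tested (6.57% in either direction), and the median log2 difference was -0.37 (0.00 over all genes). On the unadjusted scale 14 of the 32 had p under 0.05 (limma), but the share of all genes on that scale was not computed. In 23 genes both KO libraries were below both WT libraries, and in 4 genes above, against 28.6% and 27.8% of all genes. The 6 called genes were DDIT4, PHGDH, CHAC1, WARS, PPP1R15A and SLC1A5, so the lower genes came from the effectors, serine synthesis, transport and tRNA charging.

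DDIT4 was 3.08-fold lower in KO (4.74 and 4.74 against 14.4 and 15.3 RPKM, log2 -1.62 ± 0.27, limma adjusted p = 0.0199). PHGDH was 2.4-fold lower (6.90 and 5.76 against 14.6 and 16.0 RPKM, log2 -1.26 ± 0.27, adjusted p = 0.0383). CHAC1 was 1.86-fold lower (8.11 and 6.84 against 14.7 and 13.2 RPKM, log2 -0.90 ± 0.11, adjusted p = 0.00884). In these 3 genes the 2 clones of a genotype lay close together and the genotypes did not overlap.

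WARS was 1.58-fold lower, at 44.6 and 42.9 against 68.3 and 70.2 RPKM (log2 -0.66 ± 0.12, limma adjusted p = 0.0262). PPP1R15A was 1.3-fold lower, at 43.3 and 37.6 against 53.4 and 51.6 RPKM (-0.38 ± 0.09, adjusted p = 0.0453), and SLC1A5 1.29-fold lower, at 45.1 and 43.8 against 56.3 and 58.6 RPKM (-0.37 ± 0.06, adjusted p = 0.0215). Several others lay near the threshold: AARS (log2 -0.57, adjusted p = 0.0531), SHMT2 (-0.46, 0.0607), TRIB3 (-0.90, 0.062), MARS (-0.48, 0.0827), IARS (-0.26, 0.0892) and DDIT3 (-0.74, 0.0923). ATF4 was 96.6 and 85.9 RPKM in KO against 144 and 112 in WT (log2 -0.48 ± 0.30, adjusted p = 0.36).

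These calls rested on few libraries. All 6 ended without KO clone 66 and without KO clone 69 without 4-OHT, fits which leave 1 KO library and a spread taken from the other groups. Nearly all calls among all genes tested ended in both fits too, so this loss is not particular to the 6 genes. CHAC1 alone stayed called with no filter on low values, where the other 5 had adjusted p of 0.051 to 0.113, and alone without WT clone 54 without 4-OHT. In a fit of the 4 libraries compared, where 0.4% of all genes were called, its call ended (limma adjusted p = 0.0578). Those of DDIT4 and PHGDH stayed in that fit. Without WT clone 15 without 4-OHT those of PPP1R15A (0.0753) and PHGDH (0.0527) ended and 4 stayed, and SLC7A1 was added (log2 -0.57, 0.0491). Leaving out libraries with 4-OHT, which enter only through the spread, ended those of PPP1R15A and PHGDH (WT clone 15: 0.0606 and 0.0594; WT clone 54: 0.0681 and 0.0604) or of PPP1R15A and SLC1A5 (KO clone 66: 0.0834 and 0.052; KO clone 69: 0.0782 and 0.0509). The latter pair of fits added DDIT3, TRIB3, AARS and MARS, all lower in KO, with adjusted p of 0.0265 to 0.0387. On recovered reads with limma-voom 8 genes were lower, with SHMT2, AARS and MARS added and PHGDH not called (0.0774). That fit called 10.7% of all genes in either direction.

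**Figure D3:**
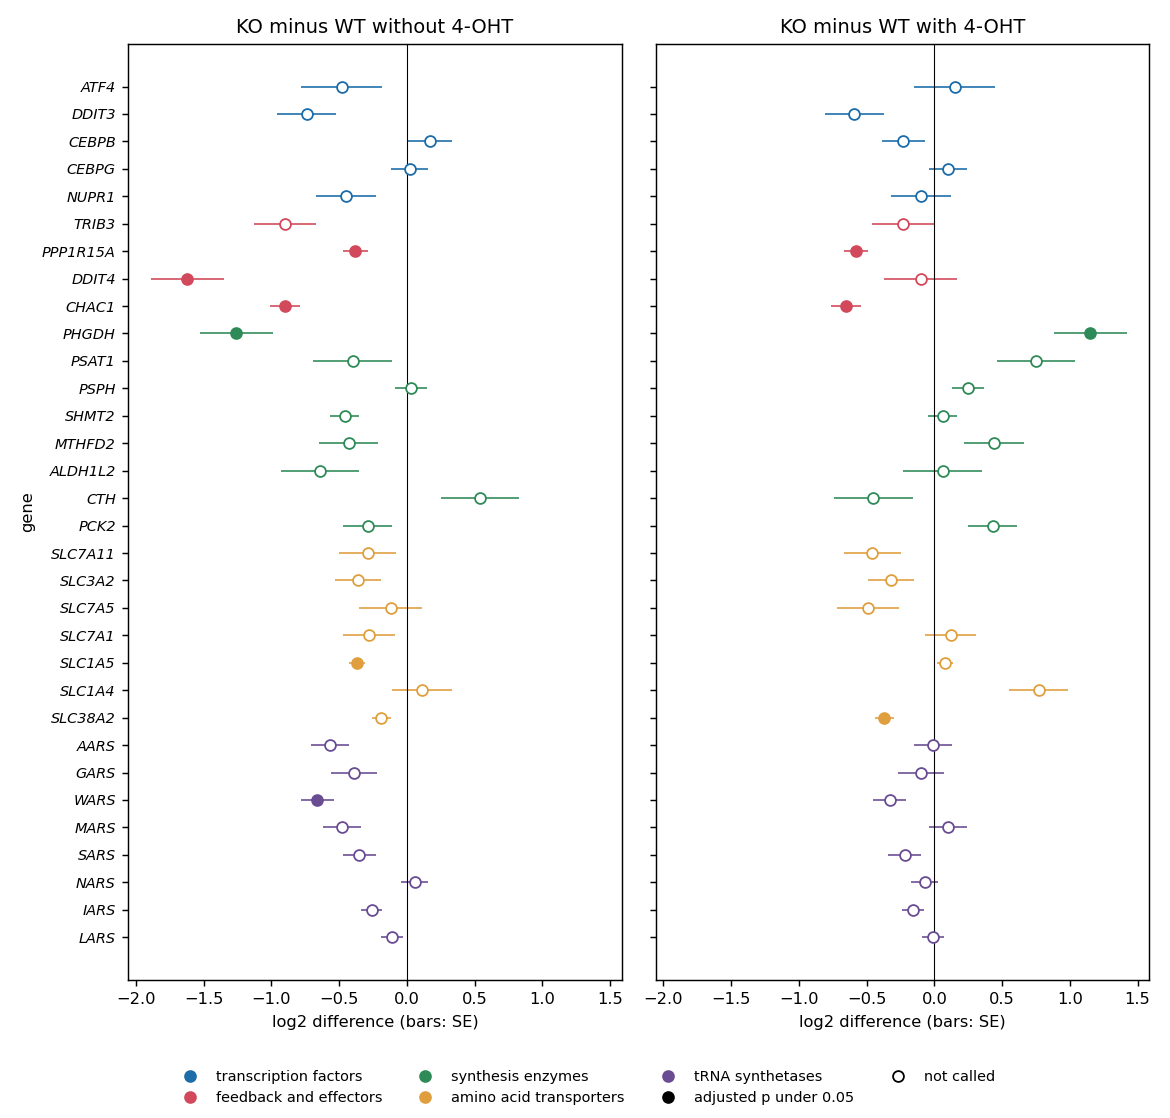
Log2 difference KO minus WT (x axis) of the 32 tested genes (y axis) without 4-OHT (left) and with it (right), coloured by role, with bars of 1 SE; filled points passed an adjusted p of 0.05. Without 4-OHT 26 of the 32 estimates lie below 0 and with 4-OHT 19 do.

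With 4-OHT the genotypes differed in fewer of these genes. In KO 1 gene was higher and 3 were lower, against 6.77% and 7.63% of all genes (14.4% in either direction), and the median log2 difference was -0.08 (-0.01 over all genes). The genotypes did not overlap in 6 higher and 9 lower genes, against 30.0% and 31.4% of all genes. CHAC1 stayed lower in KO, at 97.2 and 104 against 164 and 151 RPKM (1.57-fold, log2 -0.65 ± 0.11, limma adjusted p = 0.0109). PPP1R15A was 1.49-fold lower, at 35.8 and 35.4 against 55.1 and 51.3 RPKM (-0.58 ± 0.09, adjusted p = 0.00883), and SLC38A2 1.29-fold lower, at 133 and 137 against 178 and 170.3 RPKM (-0.37 ± 0.07, adjusted p = 0.015).

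PHGDH was the gene higher in KO, at 14.8 and 28.04 against 8.55 and 9.78 RPKM (2.21-fold, log2 1.15 ± 0.27, limma adjusted p = 0.0318). The clones did not overlap between genotypes, though clone 69 was 0.92 above clone 66 on the log2 scale. Its call ended without KO clone 69 with 4-OHT (log2 0.70, adjusted p = 0.0829), without WT clone 15 (1.06, 0.152) or 54 (1.25, 0.0786) with 4-OHT, without either KO clone without 4-OHT (1.15 and 1.15, 0.0583 and 0.0583), with no filter (1.15, 0.101), in a fit of the 4 libraries compared (1.15, 0.0651) and on recovered reads with limma-voom (1.16, 0.0603). Without KO clone 66 with 4-OHT the genes higher in KO numbered 4, with PSAT1 (log2 1.28, adjusted p = 0.0175), MTHFD2 (0.82, 0.0308) and SLC1A4 (1.13, 0.0258) added to PHGDH. That fit ended the calls of CHAC1 (0.061) and SLC38A2 (0.0806). Without KO clone 69 with 4-OHT the calls of CHAC1 (0.0698), PPP1R15A (0.0744) and SLC38A2 (0.0945) ended and DDIT3 was called lower (log2 -0.95, 0.0429). Without WT clone 15 with 4-OHT none of the 4 stayed called. Fewer of all genes were called as well in each fit that left out a library with 4-OHT.

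The third question was whether the response to 4-OHT itself differed between genotypes, tested as the KO response minus the WT response, which uses the same 8 libraries as the contrasts above. This difference was above 0 in 25 of the 32 genes, with a median of 0.31 (-0.02 over all genes). It was called in 2 genes, both with the larger value in KO, against 4.36% of all genes in that direction, and in 0 of the 32 in the other, against 3.22% (7.57% in either direction). By limma 10 of the 32 had an unadjusted p under 0.05 in either direction, a scale on which the share of all genes was not computed. With limma-voom on recovered reads 4 of the 32 were called, against 10.8% of all genes in that fit.

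PHGDH differed by log2 2.41 ± 0.38 (limma adjusted p = 0.0123): by clone its response was -0.76 and -0.71 in WT clones 15 and 54 and 1.09 and 2.26 in KO clones 66 and 69. SLC1A5 differed by 0.45 ± 0.09 (adjusted p = 0.0282), with responses of 0.53 and 0.50 in WT and 0.96 and 0.97 in KO. In both genes the KO clones began lower without 4-OHT. DDIT4 followed at 1.53 ± 0.38 (adjusted p = 0.0545), and passed with the clone as a replicate block (1.53, adjusted p = 0.0406), at a pseudocount of 1 (1.39, 0.047), with the stricter filter (1.57, 0.0353) and with limma-voom (1.56, 0.0229).

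The other genes called in 1 genotype were not shown to respond differently: PSAT1 (1.15 ± 0.42, adjusted p = 0.141), MTHFD2 (0.87 ± 0.31, 0.134), SHMT2 (0.51 ± 0.16, 0.102), MARS (0.58 ± 0.19, 0.117) and AARS (0.56 ± 0.19, 0.122). Of these, the SHMT2 difference passed with limma-voom on recovered reads (log2 0.52, adjusted p = 0.0496). Without KO clone 66 with 4-OHT 7 differences passed, those of PHGDH, DDIT4 (log2 1.96, adjusted p = 0.0244), PSAT1 (1.68, 0.0243), MTHFD2 (1.26, 0.0244), ATF4 (1.14, 0.0491), MARS (0.81, 0.0289) and AARS (0.79, 0.0283). The PHGDH call ended without KO clone 69 without 4-OHT (log2 2.28, adjusted p = 0.0651), without WT clone 15 with 4-OHT (2.33, 0.0562) and with no filter (2.42, 0.0567). That of SLC1A5 ended with no filter (0.0578) and without KO clone 66 (0.0933) or 69 (0.125) without 4-OHT, WT clone 15 (0.0909) or 54 (0.062) with it, and KO clone 66 (0.0917) or 69 (0.0902) with it.

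The 2 KO clones did not behave alike with 4-OHT. In clone 69, 28 of the 32 genes were higher than in clone 66, against 49.1% of all genes tested. The median of the 32 was 0.42 on the log2 scale (1.33-fold), against 0.00 over all genes. Of the 32 genes 10 (31.25%) were higher by more than 0.5, against 5.79% of all genes tested. Between the 2 clones of the other groups the median of the 32 genes was 0.04 (WT without 4-OHT, clone 54 minus 15), -0.09 (WT with 4-OHT) and -0.04 (KO without 4-OHT, clone 69 minus 66). Over all genes the median absolute difference between clones was 0.13 in KO with 4-OHT and 0.12 to 0.19 in the other groups, so clone 69 with 4-OHT did not stand apart across the transcriptome. This is a difference between 2 libraries with no replicate check and no test, noticed in these data.

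All 5 roles shared it. The 8 tested synthesis enzymes were all higher in clone 69, by a median of 0.58 with PSAT1 at 1.06 and PHGDH at 0.92, and so were the 8 synthetases, by a median of 0.37 with GARS at 0.49. ATF4 was 1.03 higher (2.04-fold) and DDIT3 0.77. DDIT4 was 0.86 higher, TRIB3 0.70, SLC7A5 0.79 and SLC1A4 0.70. Other genes differed little between these clones, among them CHAC1 at 0.10, SLC38A2 at 0.05, SLC1A5 at -0.03, SLC7A1 at -0.05 and PPP1R15A at -0.02.

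Seen as responses of each clone, 18 of the 32 genes were higher with 4-OHT in clones 15, 54 and 66 and 26 in clone 69, with medians of 0.11, 0.09, 0.15 and 0.56 and all-gene medians of 0.00, -0.01, -0.02 and -0.02. ATF4 fell by 0.57, 0.35 and 0.43 in the first 3 clones and was 0.76 higher in clone 69. The RN7SL RNAs took 9.18% to 10.13% of the reads in the libraries without 4-OHT. With 4-OHT they took 9.72% in WT clone 15 and 15.37% in WT clone 54. In KO with 4-OHT they took 16.1% in clone 66 and 14.77% in clone 69, and library totals were 23.0 and 23.7 M reads. Their part in the difference between the clones was not tested.

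**Figure D4:**
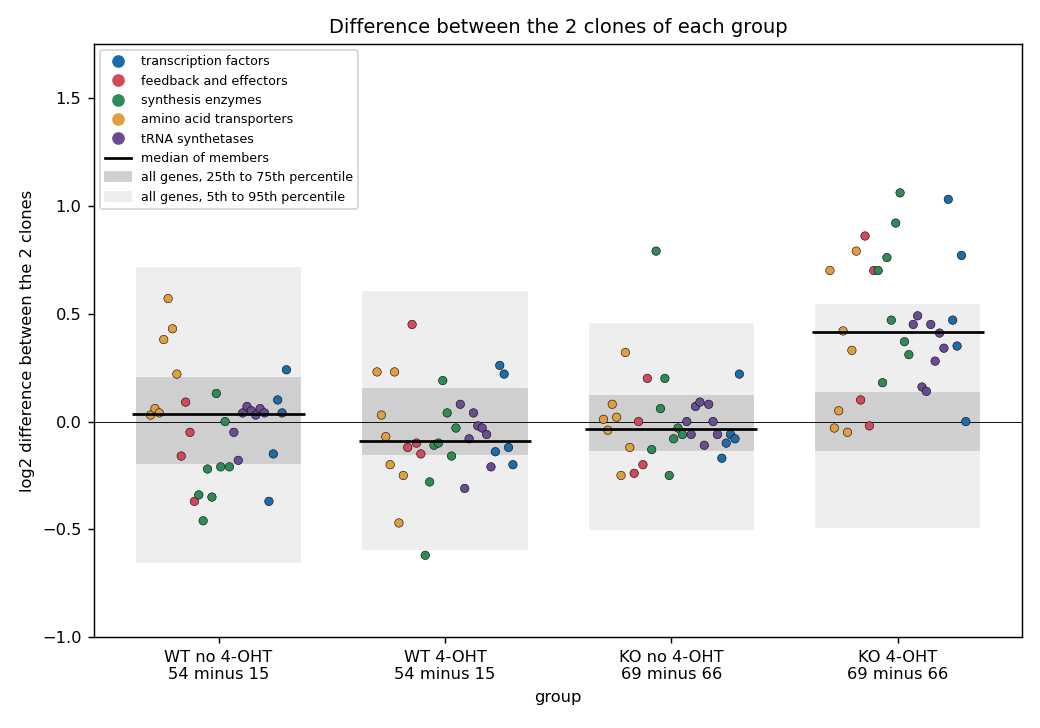
Log2 difference between the 2 clones of each group (y axis) for the 32 tested genes (points, coloured by role), with their median as a line; grey boxes span the 25th to 75th and 5th to 95th percentile of all genes tested. In KO with 4-OHT 28 of 32 points lie above 0 with a median of 0.42, while the other medians lie between -0.09 and 0.04.

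**Figure D5:**
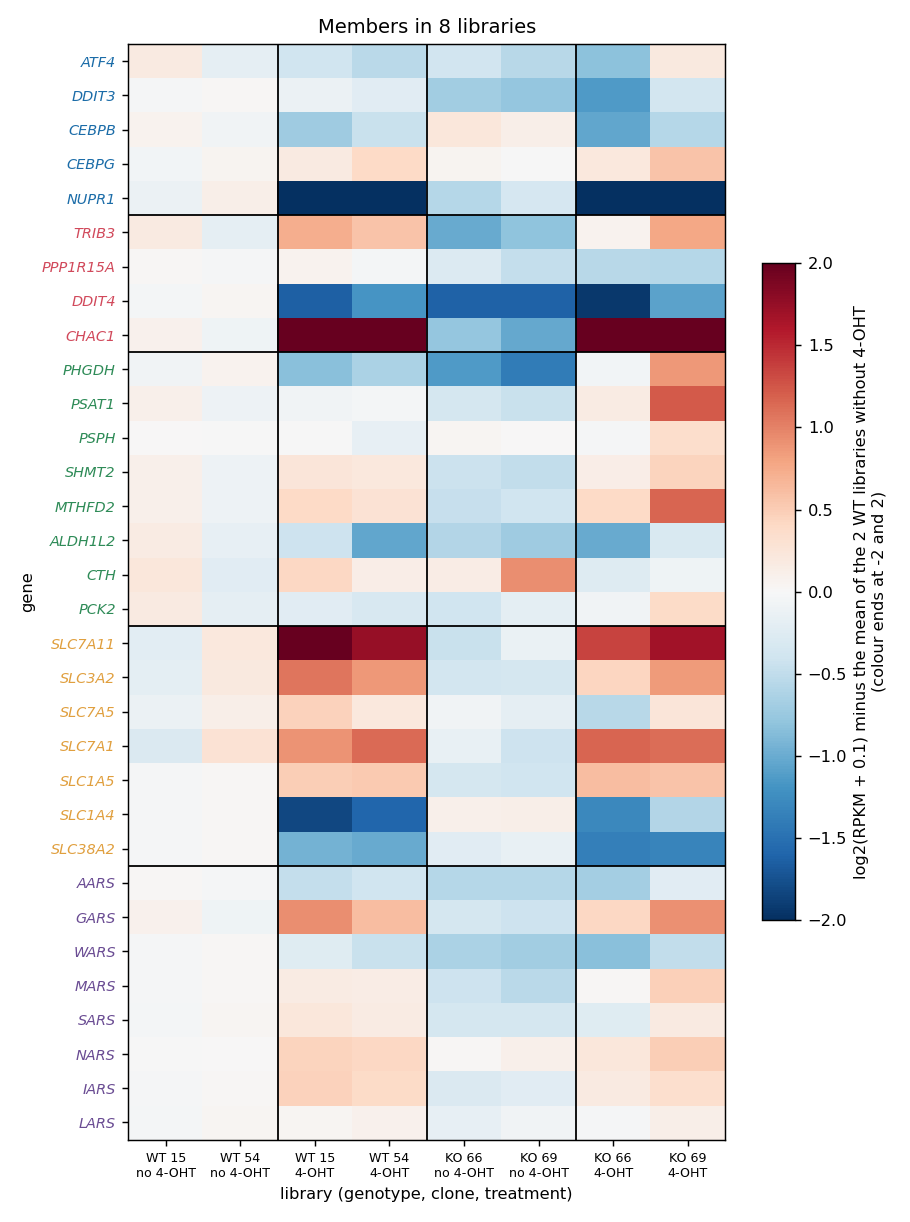
Level of the 32 tested genes (rows, coloured by role) in the 8 libraries (columns) as log2(RPKM + 0.1) minus the mean of the 2 WT libraries without 4-OHT; colours end at -2 and 2. CHAC1 and SLC7A11 are red and NUPR1 is dark blue in all 4 libraries with 4-OHT, and the column of KO clone 69 with 4-OHT is redder than that of clone 66.

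Other genes of the pathway were read from lists drawn from textbook knowledge, 96 of whose genes were tested. The counts of these lists stand against the shares of all genes given above, 24.7% higher and 24.2% lower in WT and 27.9% and 27.8% in KO. Among 17 genes of the eIF2 kinases and eIF2 signalling, 8 rose and 3 fell in WT and 9 rose and 5 fell in KO. The rises were led by 2 subunits of eIF2B, the exchange factor that phosphorylated eIF2 blocks: EIF2B3 (2.34-fold in WT and 2.58-fold in KO, limma adjusted p = 0.00032 and 0.000134) and EIF2B4 (1.85-fold and 1.92-fold, adjusted p = 0.000165 and 8.69e-05). OMA1, the mitochondrial protease that relays mitochondrial stress to eIF2, fell 3.95-fold in WT (adjusted p = 0.000392) and 2.14-fold in KO (adjusted p = 0.00498), on 8 to 46 reads a library. Over both KO against WT contrasts 1 of the 17 was called: OMA1 was higher in KO with 4-OHT (log2 0.93 ± 0.23, adjusted p = 0.0382). Between clones 69 and 66 with 4-OHT 7 of the 17 were higher, with a median of 0.00.

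Of 15 other ATF4-linked genes, 7 rose and 2 fell in WT and 6 rose and 3 fell in KO. EIF4EBP1, the translation repressor 4E-BP1, rose from 42.7 and 42.8 to 92.5 and 90.0 RPKM in WT and from 33.3 and 31.6 to 99.3 and 125 in KO (limma adjusted p = 0.000183 and 1.68e-05), and KLHL24 fell 6.51-fold in WT and 16.7-fold in KO (adjusted p = 0.000107 and 1.45e-05). The secreted glycoprotein gene STC2 rose in WT, from 11.3 and 13.6 to 39.0 and 33.8 RPKM, and measured 17.6 and 18.6 without and 20.7 and 19.6 with 4-OHT in KO. Its responses differed by log2 -1.39 ± 0.16 (adjusted p = 0.00554), the opposite sign to PHGDH and SLC1A5. Those of EIF4EBP1 differed by 0.68 ± 0.15 (limma adjusted p = 0.0393), the same sign as PHGDH and SLC1A5. These were the 2 of the 15 genes with a called difference of responses, against 7.57% of all genes. With 4-OHT 4 of these 15 genes were lower in KO, against the 7.63% of all genes above; the stress cytokine GDF15 was at 12.4 and 10.4 RPKM in KO and 30.7 and 26.4 in WT (log2 -1.32 ± 0.22, adjusted p = 0.0123). Between clones 69 and 66 with 4-OHT 12 of the 15 were higher, with a median of 0.33; the largest, ATF3 at 1.54, rested on levels of 0.396 and 0.0702 RPKM, and JDP2, at 1.00, on 3.16 and 1.53.

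Of 14 tested genes for other cytosolic tRNA synthetases and their scaffold proteins, 9 rose and 1 fell in WT and 10 rose and 1 fell in KO, led by the phenylalanine synthetase subunit FARSB (2.17-fold and 2.15-fold, limma adjusted p = 5.72e-05 and 4.12e-05) and HARS, for histidine (2.11-fold and 1.88-fold, adjusted p = 0.000264 and 0.000407). Of 17 mitochondrial synthetases 6 rose and 4 fell in WT and 7 rose and 3 fell in KO, with MARS2 up (2.5-fold and 1.97-fold, adjusted p = 0.000248 and 0.000778) and RARS2 down (2.27-fold and 3.07-fold, adjusted p = 0.00021 and 3.62e-05). Between clones 69 and 66 with 4-OHT 8 of the 14 and 8 of the 17 were higher, with medians of 0.04 and -0.01.

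Among 19 further one-carbon and non-essential amino acid enzymes, 6 rose and 5 fell in WT and 9 rose and 2 fell in KO. The proline synthesis enzyme PYCR3 rose 1.88-fold and 2.25-fold (limma adjusted p = 0.000564 and 0.000128). Here the responses differed between genotypes in 4 of the 19 genes, against 7.57% of all genes. The KO response was the higher in 3 of them and the lower in 1. SHMT1, the cytosolic counterpart of SHMT2, was at 2.60 and 2.06 RPKM in WT without and 2.03 and 2.62 with 4-OHT, and at 1.92 and 2.03 in KO without and 4.84 and 5.25 with it (difference of responses log2 1.32 ± 0.24, adjusted p = 0.022). For MTHFD1, the cytosolic folate enzyme, the difference was 0.59 ± 0.12 (adjusted p = 0.0337). Unlike PSAT1 and MTHFD2, SHMT1 was close in KO clones 66 and 69 with 4-OHT. Of 14 other amino acid transporters 1 rose and 4 fell in WT and 6 fell in KO, among them the leucine transporters SLC43A1 and SLC43A2 (log2 -1.22 ± 0.21 and -1.12 ± 0.20 in WT, adjusted p = 0.00248 and 0.00307).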

How the data were processed

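The submitters' processing notes name STAR, featureCounts, edgeR and the GRCh38 build; the sources used here give no versions, roles or strand setting. Per the labels' protocols, total RNA was made into stranded libraries. The authors deposited 1 table of 58870 genes with RPKM values per library. A bare clone number in the file headers was read as with 4-OHT and a minus sign as without, which no label spells out. With GENCODE 29 lengths, 100.0% of the values became whole reads (within 0.1 read), and these reads summed to 99.96% to 99.99% of the totals; 6676 genes needed a length inferred from their values. The 45 pseudoautosomal Y rows were left out.

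RPKM was divided by TMM factors from these reads. Genes with 10 reads at the median library size (CPM 0.425) in 2 libraries and 15 in total were tested: 16542. limma 3.58.1 (R 4.3.3; trend, robust) was fitted on log2(RPKM + 0.1) with 4 group means over 8 libraries (4 residual degrees of freedom), two-sided, Benjamini-Hochberg adjusted, threshold 0.05. Fold changes on this scale understate changes of low genes. The procedure was tested on simulated data. Same-numbered samples are the same cell clone, so the clone block was run as a paired fit; deviations from the group means correlated at 0.31 in WT and 0.01 in KO over genes.

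The members and lists were chosen with earlier results of these data known. Any member could be named; of the other lists, those with the smallest p per contrast (up to 3), beside genes named for the clone difference, which were chosen after their values were seen. Some genes that this rule names are left out of the text. Alternatives were 2 pseudocounts, 2 filters, 3 scalings, fewer libraries, the block, limma-voom and leaving out each library. Intervals and limits of 0 counts cover counting error only.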

Additional observations from a re-analysis of the deposited data

Results flagged for a closer look

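The response to 4-OHT differed between KO and WT clones in 2 of the 32 tested genes, by the test of the difference itself (limma), against 7.57% of all genes tested, so the share among these genes is no higher. PHGDH, the first enzyme of serine synthesis, had a KO response minus WT response of 2.41 on the log2 scale (adjusted p = 0.0123), with both WT clones lower and both KO clones higher with 4-OHT. SLC1A5, the glutamine transporter gene, had a difference of 0.45 (adjusted p = 0.0282), with a rise in all 4 clones.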

How the results depend on the processing

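Among member differences called as reported, no value changed direction under an alternative: 705 stayed called and 93 lost the call. Of the differences not called as reported, up to 7 in a contrast changed sign under a setting. With no filter on low values, KO against WT without 4-OHT had 1 member lower (6 as reported), KO against WT with 4-OHT had 0 higher (1 as reported) and the difference of responses 0 (2 as reported); 36398 genes were then tested. The stricter filter gave 2 higher in KO with 4-OHT. A fit of only the 4 libraries compared gave 2 lower without 4-OHT and 0 higher with it. limma-voom on recovered reads gave 4 differences of responses, with 10.8% of all genes called.

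Leaving out each library in turn, members lower in KO without 4-OHT numbered 0 to 8, higher in KO with 4-OHT 0 to 4 and lower 0 to 3, differences of responses 0 to 7, and members lower in the WT response 4 to 10. The 7 differences of responses came without KO clone 66 with 4-OHT, and the 10 lower in WT without KO clone 69 with 4-OHT; in a group left with 1 library, that library is assumed to vary like the other groups. Members higher in the WT response numbered 7 to 10, and in the KO response 12 to 20 higher and 4 to 5 lower. Calls among all genes tested moved between these fits as well. The cause of these shifts was not tested.

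With the clone as a replicate block (2 residual degrees of freedom) 9 members rose and 7 fell in WT, 16 rose and 5 fell in KO, and 3 responses differed; beside the 5 calls it added, given with those genes, the pairing changed no other call. KO and WT cannot be compared within clones. Depth limits the members with few reads, among them CTH (46 to 122 a library), DDIT3 (55 to 130), PCK2 (85 to 149) and NUPR1 with 4-OHT (0 to 2).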
